A study of Mus musculus with 6 samples.

Results

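A group of 10 genes around the transcriptional co-activators YAP and TAZ were followed in livers of mice given carbon tetrachloride (CCl4) and of mice given oil. The genes were chosen by name and matched to the count table by Ensembl identifier: Yap1, Wwtr1 (which encodes TAZ), Tead1, Ctgf (also named Ccn2), Cyr61 (also named Ccn1), Ankrd1, Amotl1, Amotl2, Lats2 and Ajuba. These 10 genes and the further gene lists below were chosen with earlier results of these data known. All 10 were found among the 55802 rows of the table, and all 10 passed the filter on low counts that left 15579 genes for testing.

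The livers were from wild-type (WT) C57BL/6 mice. The control group received oil and the other group CCl4, a hepatotoxic solvent widely used to model liver injury and fibrosis. Each group held 3 messenger RNA libraries. The labels state neither the dose, the duration, the age nor the sex, and nothing in them says that each library stands for its own mouse, so p-values here measure the spread between libraries, which may be technical in part.

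YAP and TAZ are paralogous proteins without a DNA-binding domain of their own. They enter the nucleus, bind the TEAD transcription factors and raise the transcription of TEAD target genes. The Hippo kinases, ending in LATS1 and LATS2, phosphorylate YAP and TAZ and keep them in the cytoplasm, and angiomotin proteins at cell junctions can hold them there. In the liver this pathway is known for its part in organ size, regeneration, bile duct cell identity and the activation of stellate cells, the matrix-producing cells. Because much of the control acts on YAP and TAZ proteins, transcript counts report only on messenger RNA.

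Library totals ran from 18929972 to 20042731 counts. In the quasi-likelihood fit of edgeR, 41.3% of all tested genes were called, meaning a Benjamini-Hochberg adjusted p below 0.05: 21.2% were higher and 20.1% lower in CCl4 livers. On principal components of log2 CPM (counts per 1000000, scaled by TMM), the second component (8.68% of the variance) set CCl4 replicate 3 apart from the other CCl4 libraries. Of 8 hepatocyte markers 1 was called higher (Ttr) and 3 lower (Apob, Cps1 and Tat), with a median log2 change of -0.21 and a summed level of 93700 to 101561 CPM in controls and 94275 to 98093 in CCl4 livers. The number called lower was 1 with upper quartile scaling, with library size alone or without control replicate 3, and 5 by DESeq2. Alb, the most abundant of them, was not called, at 71800 ± 3609 CPM in the control livers (SD, n = 3) and 73971 ± 1664 CPM after CCl4. Markers of other cells moved with treatment: 8 of 11 stellate cell and myofibroblast markers were called higher, with a summed level of 324 to 389 CPM in controls and 1160 to 1267 in CCl4 livers. Most of that summed rise lay in the collagen genes Col1a1 (mean 11.6 to 165 CPM), Col1a2 (20.1 to 191) and Col3a1 (54.7 to 391). Acta2, Tagln and Reln were not called. Of 7 cholangiocyte markers, 4 were called higher (30.2 to 39.7 against 61.0 to 69.8 CPM), as were 8 of 9 macrophage markers (401 to 510 against 992 to 1091) and 5 of 6 mesothelial markers (7.08 to 9.69 against 19.6 to 50.2). The number of mesothelial markers called higher was 2 with no filter or without any 1 of the control libraries. Of 9 endothelial markers, 0 were called higher and 1 lower (299 to 316 against 282 to 312). Called higher were 2 with upper quartile scaling, 3 with library size alone and 1 by DESeq2 or limma-voom. With upper quartile scaling, library size alone or DESeq2, among others, 0 were called lower. No marker of these lists was without counts. In bulk liver RNA, more cells of a type and more RNA per cell cannot be told apart, and the part of these marker changes in the results below was not tested.

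Of the 10 YAP/TAZ genes, 4 rose in CCl4 livers (Wwtr1, Tead1, Ctgf and Ajuba), 2 fell (Yap1 and Amotl2) and 4 were not called (Cyr61, Ankrd1, Amotl1 and Lats2). That is to be read beside the 21.2% of all tested genes called higher and the 20.1% called lower. Because the 10 were chosen with earlier results of these data known, this comparison is a description and not a test. The changes were small, between -0.46 and 0.81 on the log2 scale, with a median of 0.28 where the median of all tested genes was 0.00. For 7 of the 10, and for 54% of all genes tested, control and CCl4 libraries occupied separate CPM ranges. The calls of Wwtr1, Tead1 and Amotl2 held under all 14 alternatives tried. Without control replicate 1, 2 of the 10 were called higher and 1 lower. Omission of control replicate 2, of CCl4 replicate 2 or of CCl4 replicate 3 likewise left 1 called lower.

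**Figure D1:**
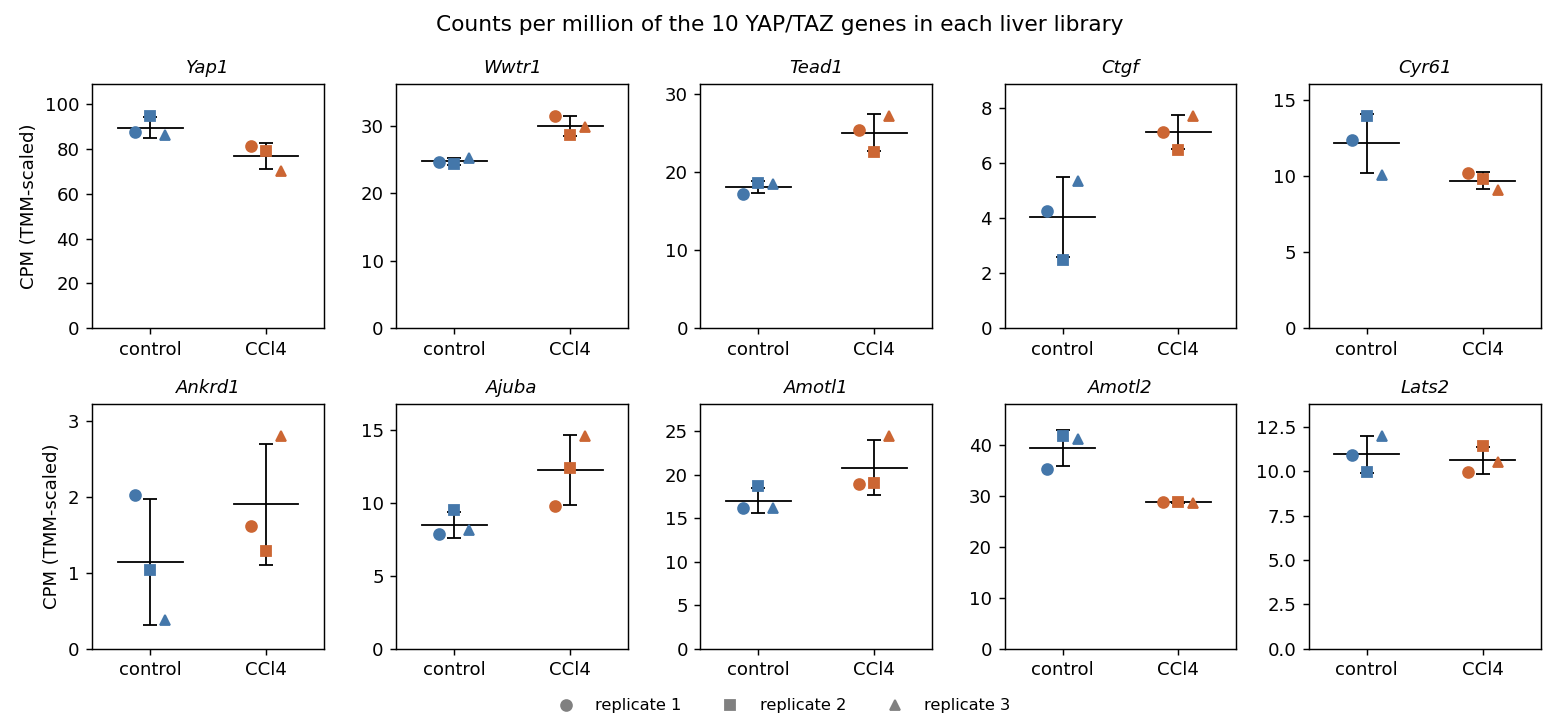
CPM scaled by TMM (vertical axis, from 0) of the 10 genes in the 3 control and 3 CCl4 libraries; symbols mark replicates, horizontal lines the group means and bars the SD. Wwtr1, Tead1, Ctgf and Ajuba lie higher and Yap1 and Amotl2 lower in every CCl4 library than in every control, while Cyr61, Ankrd1 and Lats2 overlap.

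Transcripts of the co-activators went in opposite directions. Wwtr1 (ENSMUSG00000027803), which encodes TAZ, stood at 24.6, 24.3 and 25.2 CPM in control replicates 1, 2 and 3 and at 31.5, 28.6 and 29.8 CPM in the CCl4 replicates. Every CCl4 library lay above every control, and the controls lay close together. Wwtr1 rose 1.21-fold (95% interval 1.10 to 1.34, adjusted p = 0.00664). Yap1 (ENSMUSG00000053110), which encodes YAP, stood at 87.3, 94.8 and 86.3 CPM in controls and at 81.1, 79.1 and 70.2 CPM in CCl4 livers. All CCl4 libraries were below all controls, with CCl4 replicate 3 the lowest. Yap1 was 1.16-fold lower (interval 1.05 to 1.29, adjusted p = 0.0279), a log2 change of -0.22 with an SE of 0.07.

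The Yap1 call was less firm than that of Wwtr1. With upper quartile scaling the log2 change of Yap1 was -0.13 (adjusted p = 0.155), and with library size alone -0.07 (0.383), while these scalings moved the median of all genes to 0.087 and 0.147. Leaving out any of 4 libraries also ended the call: the adjusted p was 0.0558 with control replicate 1 omitted, 0.0886 with control replicate 2, 0.0542 with CCl4 replicate 2 and 0.0632 with CCl4 replicate 3. A ratio of 2 genes within a library does not depend on scaling. For each Yap1 count there were 0.282, 0.257 and 0.292 Wwtr1 counts in controls and 0.388, 0.361 and 0.424 in CCl4 livers. The ratio was thus higher in 3 of 3 CCl4 libraries than in any control, by 1.41-fold. An exact two-sided permutation test over libraries gave p = 0.1, the smallest that 3 against 3 allows (0.133 after adjustment over the 4 ratios tested).

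Levels of different genes were compared per exon length, as CPM per kb of the exons in the GENCODE M21 annotation. All annotated exons of a gene were merged for this, whichever transcripts the liver expressed, so the order of genes depends on these lengths. On that scale Yap1 stood at 9.66 ± 0.501 and Wwtr1 at 5.17 ± 0.0924 in controls (mean ± SD, n = 3), and at 8.30 ± 0.628 and 6.26 ± 0.301 in CCl4 livers. The summed level of both was 14.6, 15.3 and 14.6 CPM per kb in controls and 15.3, 14.5 and 13.8 in CCl4 livers. These ranges overlap, with CCl4 replicates 2 and 3 below the lowest control. Wwtr1 made up 34.9 ± 1.51% of that sum in controls and 43.1 ± 1.96% in CCl4 livers. The share of Wwtr1 was larger in every CCl4 library than in any control. In controls the order of the 10 genes per kb ran from Yap1 at the top through Amotl2 (6.27 ± 0.567), Cyr61 (6.03 ± 0.975) and Wwtr1, to Ajuba (2.33 ± 0.242) and then Amotl1, Lats2, Ctgf and Tead1 (1.69 to 1.33), with Ankrd1 last (0.395 ± 0.288). Cyr61 overlapped its neighbours Amotl2 and Wwtr1, and the 4 genes from Amotl1 to Tead1 each overlapped the next. In CCl4 livers Wwtr1 stood second in that order, with no overlap with Yap1 above it or Cyr61 (4.81 ± 0.288) below it.

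**Figure D2:**
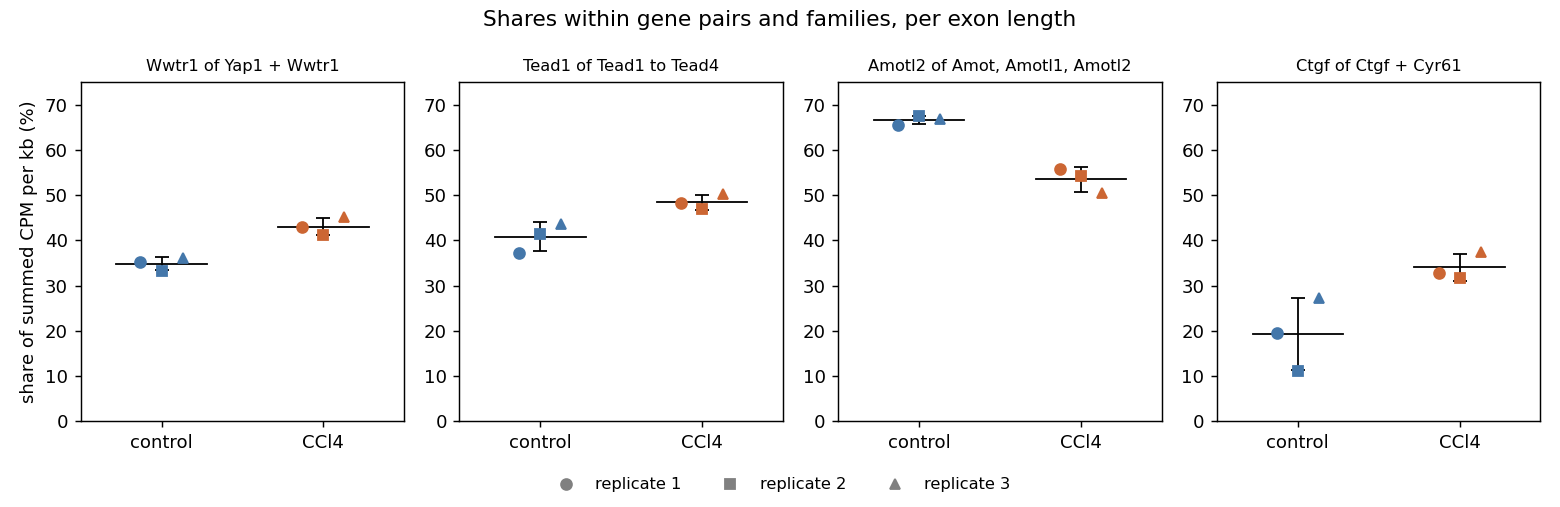
Share (%, vertical axis) of the summed CPM per kb held by Wwtr1, Tead1, Amotl2 and Ctgf within the named genes, for 3 control and 3 CCl4 libraries; symbols mark replicates, lines the means and bars the SD. The share of Wwtr1 was 34.9 ± 1.51% in controls and 43.1 ± 1.96% in CCl4 livers, and that of Amotl2 66.6 ± 0.964% and 53.5 ± 2.82%.

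Tead1 (ENSMUSG00000055320), one of the DNA-binding partners of YAP and TAZ, stood at 17.2, 18.6 and 18.4 CPM in controls and at 25.3, 22.6 and 27.2 CPM in CCl4 livers. The groups did not overlap. Tead1 rose 1.39-fold (interval 1.21 to 1.58, adjusted p = 0.00183), and over the alternatives its log2 change ran from 0.41 to 0.62. None of its paralogs was called. Tead3 stood at 10.7 ± 1.16 and 9.77 ± 0.577 CPM (log2 change -0.12, adjusted p = 0.396; 0.02 with library size alone). Tead2 stood at 0.944 ± 0.163 and 1.63 ± 0.484 CPM (0.79, adjusted p = 0.0537) and was called with upper quartile scaling, with library size alone or without CCl4 replicate 1 (adjusted p 0.0309 to 0.0383). Tead4 was near the limit of measurement at 0.552 ± 0.0791 and 0.563 ± 0.107 CPM. Per kb, Tead3 held the largest share of the TEAD transcripts in controls on average (48.5 ± 3.24%, against 40.8 ± 3.18% for Tead1). In CCl4 livers Tead1 did (48.5 ± 1.66%, against 38.4 ± 3.48% for Tead3), and the Tead1 share was higher in each CCl4 library than in any control. The order of Tead3 above Tead1 in controls rests on their exon lengths, 6.71 and 13.6 kb. In CPM, Tead1 lay above Tead3 in every control library (Tead3 at 11.8, 10.6 and 9.49). Of the VGLL cofactors, which bind TEAD proteins in competition with YAP and TAZ, Vgll4 is the main one measured here, and it was not called. Vgll3 rose 2.31-fold (adjusted p = 0.00807) from 9 to 17 counts per control library to 29 to 38 per CCl4 library. Vgll1 had 0 counts in every library and Vgll2 was below the filter, so that 1 of the 5 tested TEAD and VGLL genes beside Tead1 rose, a share near the 21.2% of all tested genes called higher.

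**Figure D3:**
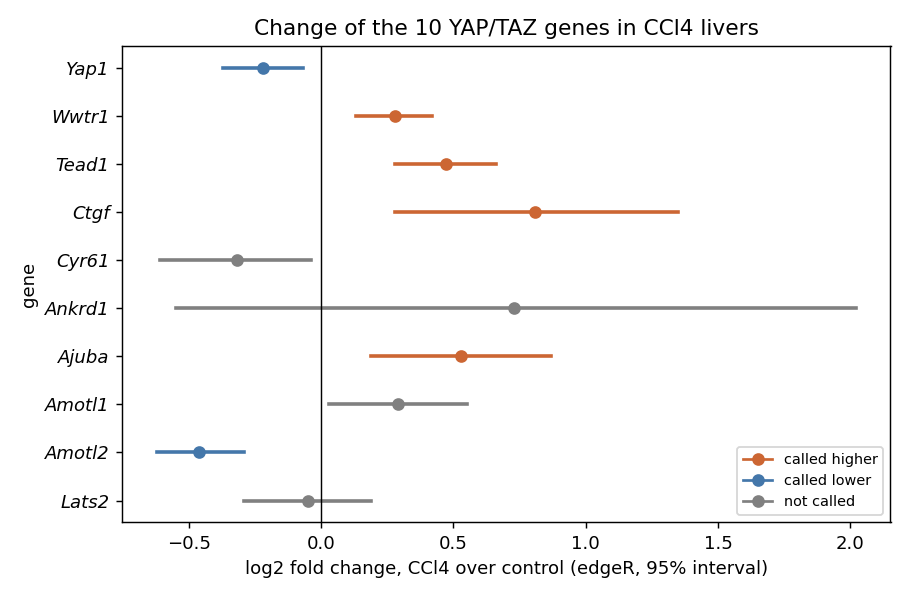
Log2 fold change, CCl4 over control (horizontal axis), with its 95% interval for each of the 10 genes, from the edgeR fit over all genes; colours mark genes called higher, called lower or not called at an adjusted p of 0.05. The Wwtr1 and Yap1 intervals lie on opposite sides of 0, as do those of Tead1 and Amotl2.

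TEAD proteins recognise a short core motif, GGAATG, which reads as CATTCC on the opposite strand. The 250 bases before the RefSeq start sites were searched for it on both strands. RefSeq windows (build GRCm38.p6) were found for 8 of the 10 genes, and 6 of these 8 held a match, where 14.4% of 27025 gene symbols and 12.6% of 32851 windows did. The windows of Amotl1 and Lats2 held none. Ctgf and Tead1 had no window and were not searched. Several of the 10 were chosen as known YAP/TAZ targets, so this comparison with all genes is not a test. A match is a description of the letters and not a measured binding site. The windows of 4 of these 6 genes follow: Cyr61 and Ankrd1 as standard targets, Ajuba as a called gene with a pair of matches and Amotl2 as the target that fell. Each runs 5′ to 3′ on the strand of the gene, with the core in capitals. Cyr61 (chr3:145649986-145650235, minus strand) has it 103 bases before the start, Ankrd1 (chr19:36119845-36120094, minus strand) at 210 and 123, Ajuba (chr14:54577662-54577911, minus strand) at 186 and 164, and Amotl2 (chr9:102717554-102717803, plus strand) at 65. A window with at least 2 matches, as in Ankrd1 and Ajuba, made up 0.992% of all windows.
Cyr61: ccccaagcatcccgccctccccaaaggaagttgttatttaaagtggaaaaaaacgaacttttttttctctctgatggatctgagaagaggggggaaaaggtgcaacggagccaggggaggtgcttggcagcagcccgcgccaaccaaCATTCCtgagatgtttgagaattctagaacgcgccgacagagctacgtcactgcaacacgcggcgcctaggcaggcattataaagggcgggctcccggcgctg
Ankrd1: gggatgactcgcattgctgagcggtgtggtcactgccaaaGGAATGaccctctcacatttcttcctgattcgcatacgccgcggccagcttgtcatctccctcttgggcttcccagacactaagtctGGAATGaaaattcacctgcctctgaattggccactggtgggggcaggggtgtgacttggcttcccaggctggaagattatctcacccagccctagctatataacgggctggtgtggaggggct
Ajuba: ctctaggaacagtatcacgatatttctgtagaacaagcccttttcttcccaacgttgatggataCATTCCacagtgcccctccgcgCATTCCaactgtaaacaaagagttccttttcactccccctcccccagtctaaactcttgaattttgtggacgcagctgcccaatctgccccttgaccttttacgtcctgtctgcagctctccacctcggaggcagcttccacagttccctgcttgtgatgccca
Amotl2: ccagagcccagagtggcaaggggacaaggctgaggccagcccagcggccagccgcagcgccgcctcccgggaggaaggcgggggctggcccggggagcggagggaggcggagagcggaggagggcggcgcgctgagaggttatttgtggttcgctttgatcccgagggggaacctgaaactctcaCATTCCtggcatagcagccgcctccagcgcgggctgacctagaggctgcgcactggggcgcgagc

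Ctgf (ENSMUSG00000019997), a secreted matrix-associated protein of the CCN family and the target most often used to read out YAP and TAZ, rose 1.76-fold (interval 1.21 to 2.55, adjusted p = 0.0231). It stood at 4.26, 2.49 and 5.35 CPM in controls and at 7.11, 6.48 and 7.71 CPM in CCl4 livers. The groups did not overlap, and the spread was wider among controls. Omitting control replicate 1 ended the call (adjusted p = 0.065), as did omitting CCl4 replicate 1 (0.0614) or CCl4 replicate 3 (0.0572). Cyr61 (ENSMUSG00000028195), its CCN family relative and also a standard target, stood at 12.4, 14 and 10.1 CPM in controls and at 10.2, 9.84 and 9.09 CPM in CCl4 livers. Control replicate 3 lay within the CCl4 range, and the log2 change was -0.32 (SE 0.13, adjusted p = 0.0665). Cyr61 was called lower without control replicate 3 (-0.45, adjusted p = 0.0166) and with no filter on low counts (-0.34, 0.0304).

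The 2 CCN targets therefore did not move together. The library ratio of Ctgf to Cyr61 counts was 0.345, 0.177 and 0.529 in controls and 0.695, 0.658 and 0.849 in CCl4 livers. It was higher in 3 of 3 CCl4 libraries than in any control, by 2.28-fold (exact permutation p = 0.1, adjusted 0.133). On the log2 scale the difference was 1.19, and it was 0.77 without control replicate 2, where Ctgf was lowest. Per kb, Ctgf held 19.3 ± 8.04% of the sum of both in controls and 34.0 ± 3.03% in CCl4 livers, while that sum stood at 7.44 ± 0.492 and 7.30 ± 0.223 CPM per kb. Of the 4 other CCN genes, Wisp2 (Ccn5) rose from 6, 6 and 1 counts to 16, 16 and 23 (log2 change 1.94, SE 0.47, adjusted p = 0.00855). Wisp3 (Ccn6) fell from 11, 13 and 12 counts to 2, 5 and 3 (-1.91, SE 0.41, adjusted p = 0.00482). Wisp1 (Ccn4) was not called, and Nov (Ccn3) was below the filter.

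Ankrd1 (ENSMUSG00000024803), an ankyrin repeat protein of muscle that YAP induces in many cell types, was the member with the fewest counts. It had 38, 19 and 7 counts in controls and 32, 26 and 57 in CCl4 livers. That is 2.02, 1.03 and 0.371 CPM against 1.61, 1.29 and 2.80 CPM. The groups overlapped, and the interval of the fold change, 0.685 to 4.04, takes in both a fall and a rise (adjusted p = 0.322). At this depth and spread a change of the size seen for Ctgf was not detectable for Ankrd1.

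Ajuba (ENSMUSG00000022178), a LIM-domain protein of cell junctions that binds LATS kinases and restrains them, stood at 7.88, 9.51 and 8.11 CPM in controls and at 9.78, 12.4 and 14.6 CPM in CCl4 livers. The lowest CCl4 library lay just above the highest control. Ajuba rose 1.44-fold (interval 1.14 to 1.82, adjusted p = 0.0193), but omitting control replicate 1 (adjusted p = 0.0801), control replicate 3 (0.0736) or CCl4 replicate 2 (0.0573) ended the call. Of its LIM-domain relatives, Limd1 and Wtip were not called.

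The angiomotin family, junctional scaffolds that bind YAP and TAZ, changed unequally. Amotl2 (ENSMUSG00000032531), which is also a YAP/TAZ target, stood at 35.3, 41.8 and 41.2 CPM in controls and at 28.8, 28.8 and 28.5 CPM in CCl4 livers. The CCl4 libraries lay close together and below every control. Amotl2 was 1.37-fold lower (interval 1.23 to 1.54, adjusted p = 0.000968), a log2 change of -0.46 with an SE of 0.07. Amotl1 (ENSMUSG00000013076) stood at 16.2, 18.7 and 16.2 CPM in controls and at 18.9, 19.1 and 24.5 CPM in CCl4 livers. The groups did not overlap but came close, and the log2 change of 0.29 (SE 0.12) was not called (adjusted p = 0.0725). Amotl1 was called higher with upper quartile scaling (0.37, adjusted p = 0.0315), library size alone (0.44, 0.0217) and no filter (0.27, 0.035).

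Amot, the founding gene of that family, rose 1.32-fold, from 12.1 ± 1.52 to 16.1 ± 1.23 CPM (adjusted p = 0.0143). Omitting control replicate 1 (adjusted p = 0.0656) or control replicate 2 (0.0508) ended that call. The ratio of Amotl2 to Amotl1 counts was 2.18, 2.23 and 2.54 in controls and 1.53, 1.51 and 1.16 in CCl4 livers. It was lower in 3 of 3 CCl4 libraries than in any control, by 1.66-fold (exact permutation p = 0.1, adjusted 0.133). Per kb, Amotl2 held 66.6 ± 0.964% of the transcripts of this family in controls and 53.5 ± 2.82% in CCl4 livers, with Amot and Amotl1 both at a larger share in each CCl4 library than in any control.

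Lats2 (ENSMUSG00000021959), a kinase that phosphorylates YAP and TAZ and is itself induced by them, stood at 10.9, 9.94 and 12 CPM in controls and at 9.93, 11.4 and 10.5 CPM in CCl4 livers. The groups overlapped fully. The fold change was 0.966 with an interval of 0.820 to 1.14 (adjusted p = 0.735). The interval leaves out a rise as large as the 1.21-fold of Wwtr1 and a fall as large as the 1.37-fold of Amotl2. A fall of up to 1.22-fold lies within it. Its sign turned with upper quartile scaling and with library size alone (log2 0.04 and 0.10). Lats1, the paralog, was not called: its control libraries averaged 51.7 ± 1.68 CPM and the CCl4 libraries 47.5 ± 1.18 (log2 change -0.12, adjusted p = 0.102; 0.03 with library size alone). The ratio of Lats2 to Lats1 counts was 0.210, 0.187 and 0.241 in controls and 0.203, 0.243 and 0.223 in CCl4 livers, with groups that overlap (exact permutation p = 0.6).

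Of 15 Hippo kinases and adaptors, a list that includes Lats1 and the LATS relatives Stk38 and Stk38l, 1 rose and 5 fell (median log2 change -0.13). Over all tested genes 21.2% were called higher and 20.1% lower, and the counts of this list and of those that follow are to be read beside these shares. The gene that rose was Map4k4, a kinase that can act on LATS beside the MST kinases, from 19.6 ± 0.546 to 45.1 ± 4.67 CPM (log2 change 1.20, SE 0.08, adjusted p = 1.03e-05). Mob1b, a LATS co-activator, fell from 81.9 ± 2.01 to 54.7 ± 3.57 CPM (-0.58, SE 0.06, adjusted p = 8.99e-05). Taok3, a kinase upstream of MST, fell from 64.7 ± 2.93 to 41.1 ± 4.83 CPM (-0.65, SE 0.08, adjusted p = 0.000268). Nf2, Taok1 and Stk38l were the other 3 called lower, by 0.19 to 0.38 on the log2 scale. The MST kinase genes Stk3 and Stk4, their adaptor Sav1 and Mob1a were not called. With library size alone 3 of the 15 were called higher and 2 lower.

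Of 18 junction and scaffold regulators 17 were tested, and 2 rose and 2 fell (median 0.03), beside 21.2% higher and 20.1% lower over all tested genes. Those that rose were Amot and Dlg5, a scaffold that acts on MST kinases, which went from 6.33 ± 0.839 to 9.01 ± 1.56 CPM (log2 change 0.51, adjusted p = 0.0233). Dlg5 was not called by DESeq2 (adjusted p = 0.0524), nor when control replicate 1 or 3 or CCl4 replicate 3 was omitted (0.0621 to 0.0922). Without control replicate 1, 0 of the list were called higher. With upper quartile scaling 5 were called higher, and with library size alone 7. Those that fell were the polarity scaffolds Pard3, from 80.7 ± 4.40 to 61.5 ± 5.47 CPM (-0.39, SE 0.07, adjusted p = 0.00219), and Pals1 (-0.24, adjusted p = 0.0467). Pard3 was called in all 14 alternatives. Pals1 was not called with upper quartile scaling, library size alone, the stricter filter, DESeq2 or limma-voom, nor when control replicate 1 or 3 or CCl4 replicate 1 or 2 was omitted, where 1 gene of the list was called lower.

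Beyond the 10, 17 further genes commonly listed as YAP/TAZ targets were read, of which 15 were tested. Of these, 7 rose and 2 fell, with a median log2 change of 0.32, beside 21.2% called higher, 20.1% called lower and a median of 0.00 for all genes tested. The list was chosen with earlier results of these data known, so its distance from these shares is not a test of YAP/TAZ targets. The larger rises were in Ccdc80, a secreted matrix protein, from 12.3 ± 2.16 to 64.0 ± 8.21 CPM (2.38, SE 0.14, adjusted p = 2.19e-05), and Myof, a membrane repair protein, from 4.24 ± 1.04 to 19.1 ± 1.35 CPM (2.17, SE 0.16, adjusted p = 1.52e-05). The receptor tyrosine kinase Axl rose from 25.9 ± 0.760 to 59.9 ± 6.37 CPM (1.21, SE 0.08, adjusted p = 9.64e-06). Asap1, Igfbp3, Arhgef17 and Tgfb2 rose by 0.29 to 0.98 on the log2 scale, and Dock5 (-0.55) and Nuak2 (-0.56) fell. Without CCl4 replicate 3, 4 of the list were called lower. Many of these genes are also expressed by stellate cells, fibroblasts or macrophages, and most markers of these cells rose in the same libraries. Col1a1 went from 11.6 ± 4.56 to 165 ± 17.4 CPM, Pdgfrb from 13.4 ± 1.43 to 30.8 ± 7.51 and the macrophage gene Adgre1 from 18.3 ± 3.95 to 43.5 ± 2.55. The stellate cell and myofibroblast markers Acta2, Tagln and Reln and the macrophage marker Clec4f were not called. The part of such cells in the changes of the target genes was not tested.

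**Figure D4:**
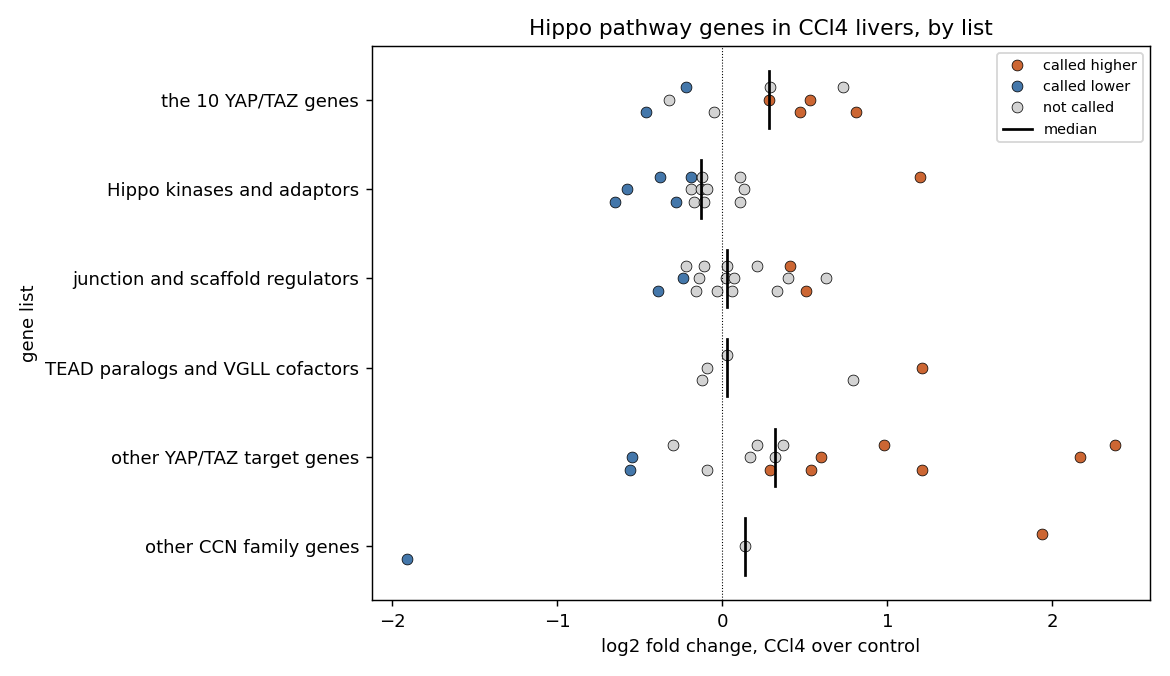
Log2 fold change, CCl4 over control (horizontal axis), of each tested gene in 6 lists; points are genes, coloured by call, vertical bars are list medians. Among Hippo kinases and adaptors 1 gene lies at 1.20 and the rest at or below 0.13, while the other YAP/TAZ target genes reach 2.38.

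Single markers of cell types in which YAP and TAZ are known to be active were read beside these genes. The bile duct genes Krt19 and Epcam rose, from 2.07 ± 0.647 to 4.43 ± 0.384 CPM (log2 change 1.10, adjusted p = 0.00375) and from 2.05 ± 0.593 to 6.15 ± 3.32 CPM (1.58, adjusted p = 0.0253). Epcam was called in 9 of 14 alternatives, and it lost its call without any 1 of the control libraries, among others. It stood at 9.97 CPM in CCl4 replicate 3, more than in the other CCl4 libraries. CCl4 replicate 3 was also the CCl4 library with the highest level for 5 of the 10 YAP/TAZ genes, Tead1, Ctgf, Ankrd1, Amotl1 and Ajuba. For 3 of the 10, Yap1, Cyr61 and Amotl2, it was the lowest CCl4 library. Among controls, replicate 2 was the highest for 6 of the 10. Such shares were not computed over all tested genes, and a link with Epcam was not tested. Sox9, a bile duct transcription factor, stood at 8.11 ± 3.53 and 15.4 ± 1.76 CPM (0.93, adjusted p = 0.0516) and Acta2, the actin of myofibroblasts, at 3.91 ± 2.54 and 8.19 ± 1.53 (1.07, adjusted p = 0.189). Sox9 stayed without a call in only 6 of 14 alternatives and was called higher in the others. Its log2 change ran from 0.67 to 1.31 and its adjusted p went down to 0.00129. Acta2 stayed without a call in 13 of 14. The mesothelial marker Msln rose (adjusted p = 0.0473) but with 2.26 CPM in CCl4 replicate 3 and 6.96 and 10.7 in the others. Its call held in 7 of 14 alternatives. The alternatives that lost the call included omission of any 1 of the control libraries, of CCl4 replicate 1 or of CCl4 replicate 2. The proliferation marker Mki67 rose from 4.62 ± 1.01 to 54.7 ± 19.3 CPM, with 66, 65.7 and 32.4 CPM in CCl4 replicates 1, 2 and 3. All 6 cell cycle markers were called higher, beside 21.2% of all tested genes. Their summed level was 37 to 43 CPM in controls and 171, 189 and 105 CPM in CCl4 replicates 1, 2 and 3. The endothelial marker Pecam1 stood at 17.3 ± 1.84 and 19.9 ± 2.07 CPM without a call.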

How the data were processed

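The authors deposited raw counts per gene, 1 column per library and whole numbers, in a table of 55802 rows. Per the series' design text, reads were filtered and aligned with HISAT2, and per the submitters' processing notes featureCounts was used. The sources used here give no versions, genome build, annotation or strand setting, so genome positions are given only for RefSeq windows. Symbols and exon lengths come from GENCODE M21, in which 52083 of 55359 Ensembl identifiers matched. Genes overlapping the 10 in M21 had at most 18 counts in any library, where such rows were in the table. Because the strand setting is not known, these counts do not bound the reads from the other strand that were counted for the 10. Columns were mapped by name, and no 2 libraries of a group agreed within sampling noise.

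The test was run with edgeR 4.0.16 in R 4.3.3 (filterByExpr, TMM, glmQLFit with robust estimation, glmQLFTest) over all 6 libraries. P-values were adjusted by Benjamini-Hochberg over all genes tested. The code was also tested on simulated data. Ratios used 0.5 added to each count and exact permutation tests in scipy 1.17.1. Alternatives were other scalings and filters, DESeq2 1.42.0, limma-voom (limma 3.58.1), a block for replicate number and omission of each library in turn. Intervals do not cover PCR duplication. The 10 genes and the lists were chosen with earlier results of these data known. Besides the 10, named genes were 5 paralogs, 11 markers and, per list, the 3 called genes of smallest adjusted p and the 2 of largest change at 1 CPM or more. The rule named 37 genes. Any further gene was picked with its values in view.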

Additional observations from a re-analysis of the deposited data

How the results depend on the processing

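The calls of Wwtr1, Tead1 and Amotl2 kept their direction and stayed under an adjusted p of 0.05 in all 14 alternatives, and Ankrd1 was called in none of them. Of all genes called lower there were 3124 with TMM, 2177 with upper quartile scaling and 1676 with library size alone. Of all genes called higher there were 3303, 4103 and 4824. These scalings moved the median log2 change of all genes from 0.001 to 0.087 and 0.147. The number of the 10 genes called lower was 1 with upper quartile scaling and 1 with library size alone, because Yap1 lost its call. With a library left out, 2 to 4 of the 10 were called higher and 1 to 3 lower. The log2 change of Lats2 was 0.04 with upper quartile scaling, 0.10 with library size alone and -0.12 to 0.02 with a library left out. With library size alone it was 0.03 for Lats1 and 0.02 for Tead3. Tead4 ran from -0.09 to 0.17 and the log2 ratio of Lats2 to Lats1 from -0.02 to 0.17 with a library left out; the cause was not tested. The other 3 ratios kept their direction in every alternative.

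The replicate numbers do not show a pairing: deviations of same-numbered libraries from their group means correlated at 0.0483, 0.00396 and 0.0635 for replicates 1, 2 and 3, and not every library correlated best with its own number. With the replicate block the number of all genes called was 6416, against 6427 without it, and 7 of the 10 YAP/TAZ genes, with Cyr61 added (log2 change -0.32, adjusted p = 0.0452). Same-numbered differences gave a log2 change of 0.50 for the ratio of Wwtr1 to Yap1. Depth limits Ankrd1, at 7 to 57 counts per library, and Tead4, Vgll3, Wisp2 and Wisp3. With 3 libraries a group, no exact permutation test of a ratio could fall below 0.1.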
